A study of Rattus norvegicus with 32 samples.

Results

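Myelin structural genes were examined in 4 brain regions of rats given methamphetamine (METH) or saline: the SVZ (subventricular zone, beside the ventricle), the NAc (nucleus accumbens, in the striatum) and, in the hippocampus, the DG (dentate gyrus) and the CA (Ammon's horn). The set holds 9 of the 28914 genes counted in each sample (Mbp, Mog, Mag, Mobp, Cnp, Mal, Cldn11, Ermn and Opalin) and was taken by gene name, not by expression. RNA came from adult male Sprague-Dawley rats that received 4 intraperitoneal injections of METH at 10 mg/kg, 2 h apart, or of saline on the same schedule, and that were killed a day after the last injection. Each of the 4 regions has 4 saline (Sal) and 4 METH samples, 32 in all. The NAc and SVZ were taken as punches and the DG and CA by dissection. Total counts ranged from 11094002 to 21869773 reads per sample, and the labels do not say that the 4 samples of a group come from 4 rats, so p-values measure the spread between these samples.

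Myelin is the membrane that oligodendrocytes wrap around axons in the brain and spinal cord. Its structural proteins are made in large amounts once an oligodendrocyte precursor has left the cell cycle and begun to wrap, and the transcription factors Olig2, Sox10 and Myrf drive that programme. In the hippocampus and striatum much of the myelin lies in fibre bundles. In bulk tissue, fewer oligodendrocytes and less RNA per oligodendrocyte cannot be told apart.

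Mbp encodes myelin basic protein, which holds the inner faces of the membrane together, and lies at chr18:79326738-79437310 on the plus strand of rn6. Mobp (chr8:128824508-128850358, plus strand) encodes a small basic protein of compact myelin. Mag (chr1:89345429-89360733, minus strand) is an adhesion protein of the membrane that faces the axon, and Mog (chr20:2004052-2014286, plus strand) an immunoglobulin-like protein of the outermost layer. Cnp (chr10:88490798-88497356, plus strand) encodes an enzyme of the cytoplasm-filled parts of the sheath. Mal (chr3:120209647-120233655, minus strand) is a membrane protein that moves with lipid rafts, Cldn11 (chr2:115823538-115836846, minus strand) forms the tight junctions between the layers, Ermn (chr3:44068057-44086022, minus strand) binds actin in late oligodendrocytes, and Opalin (chr1:260324028-260341723, minus strand) is a glycoprotein of the membrane. Reads were counted over exons without strand. Genes on the opposite strand overlap Mog (Zfp57) and Ermn (Galnt5). On their own strands Mbp overlaps AC097762.1 and Mag overlaps Ovol3 and RF00105. These are overlaps of whole gene spans, and whether their exons overlap, which could affect the counts, was not tested.

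The 9 genes varied together across the samples (below, a median pairwise correlation of 0.979), so the sequences before their starts are shown for 5 of them, the 4 with a motif of the oligodendrocyte factor Myrf and Mobp, with the most copies of a Sox motif. RefSeq windows (build GRCr8) were found for 7 of the 9 genes, and the 250 bases before the start were searched on both strands for ACAAAG, a core motif of Sox factors (CTTTGT on the other strand), and for CTGGCAC, a core motif of Myrf (GTGCCAG on the other strand). No copies overlapped each other, and both motifs are in capitals. The windows lie at chr1:95291045-95291294 (Mag, minus strand), chr10:86011254-86011503 (Cnp, plus strand), chr3:135341424-135341673 (Mal, minus strand), chr1:249858191-249858440 (Opalin, minus strand) and chr8:128746982-128747231 (Mobp, plus strand), each written 5' to 3' on the strand of the gene and ending at the base before the start.
Mag: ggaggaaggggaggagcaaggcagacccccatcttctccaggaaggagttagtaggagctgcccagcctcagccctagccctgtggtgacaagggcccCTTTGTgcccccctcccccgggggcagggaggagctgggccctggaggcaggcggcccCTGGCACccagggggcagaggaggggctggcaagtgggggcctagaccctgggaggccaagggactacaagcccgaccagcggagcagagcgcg
Cnp: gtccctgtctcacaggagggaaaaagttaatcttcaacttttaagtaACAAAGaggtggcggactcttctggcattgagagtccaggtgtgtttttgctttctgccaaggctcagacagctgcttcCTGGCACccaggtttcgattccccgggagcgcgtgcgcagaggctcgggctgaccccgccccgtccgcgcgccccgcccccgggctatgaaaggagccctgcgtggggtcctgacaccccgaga
Mal: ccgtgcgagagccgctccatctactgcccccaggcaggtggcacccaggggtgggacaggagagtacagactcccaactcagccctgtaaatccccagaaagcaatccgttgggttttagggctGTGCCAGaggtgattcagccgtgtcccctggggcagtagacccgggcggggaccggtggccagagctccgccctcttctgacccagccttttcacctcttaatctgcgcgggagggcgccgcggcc
Opalin: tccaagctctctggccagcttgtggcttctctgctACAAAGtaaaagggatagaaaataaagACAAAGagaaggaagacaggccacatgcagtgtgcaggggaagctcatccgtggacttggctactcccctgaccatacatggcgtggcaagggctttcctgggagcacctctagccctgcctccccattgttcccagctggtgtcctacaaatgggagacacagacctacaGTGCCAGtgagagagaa
Mobp: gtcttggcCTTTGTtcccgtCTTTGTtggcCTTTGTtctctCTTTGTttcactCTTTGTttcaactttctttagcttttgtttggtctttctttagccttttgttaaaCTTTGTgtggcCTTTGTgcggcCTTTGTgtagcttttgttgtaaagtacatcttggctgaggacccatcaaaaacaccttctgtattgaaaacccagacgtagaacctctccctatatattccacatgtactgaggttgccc
The Myrf motif was in the windows of 4 genes, Mag, Cnp, Mal and Opalin, against 3.78% of all 33469 rat windows of this length. It began 94 bases before the start in Mag, 124 in Cnp, 126 in Mal and 17 in Opalin. The Sox motif was in 5 of the 7 genes with a window, Mbp, Mag, Mobp, Cnp and Opalin, against 16.3% of all windows. Mbp has a pair of windows and held 1 copy in only one of them, Mobp held 8 copies, all as CTTTGT, and neither motif was in the window of Cldn11. A match is a description of the letters and not evidence that a factor binds.

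Levels are given in CPM, the read counts scaled to a common library size by the upper quartile over all 32 libraries. Mbp was the most abundant of the 9 genes in every sample, and the 9 genes together took 0.172% (CA METH 4) to 2.03% (SVZ METH 4) of all reads. Counts were deep throughout. The lowest count of any member in any sample was 372 reads, for Ermn, and Mbp had at least 15024. Per kb of exon length, the means of the groups kept nearly the same order in all 8 groups: Mbp was first, Cnp second, Mog seventh, Ermn eighth and Opalin ninth in each. Cldn11, Mobp, Mal and Mag took the ranks from 3 to 6 and changed places between groups. In saline NAc, for example, Mbp had 1231 CPM per kb, Cnp 223, Cldn11 172, Mal 132, Mobp 128, Mag 113, Mog 71.1, Ermn 54.4 and Opalin 45.2.

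**Figure D1:**
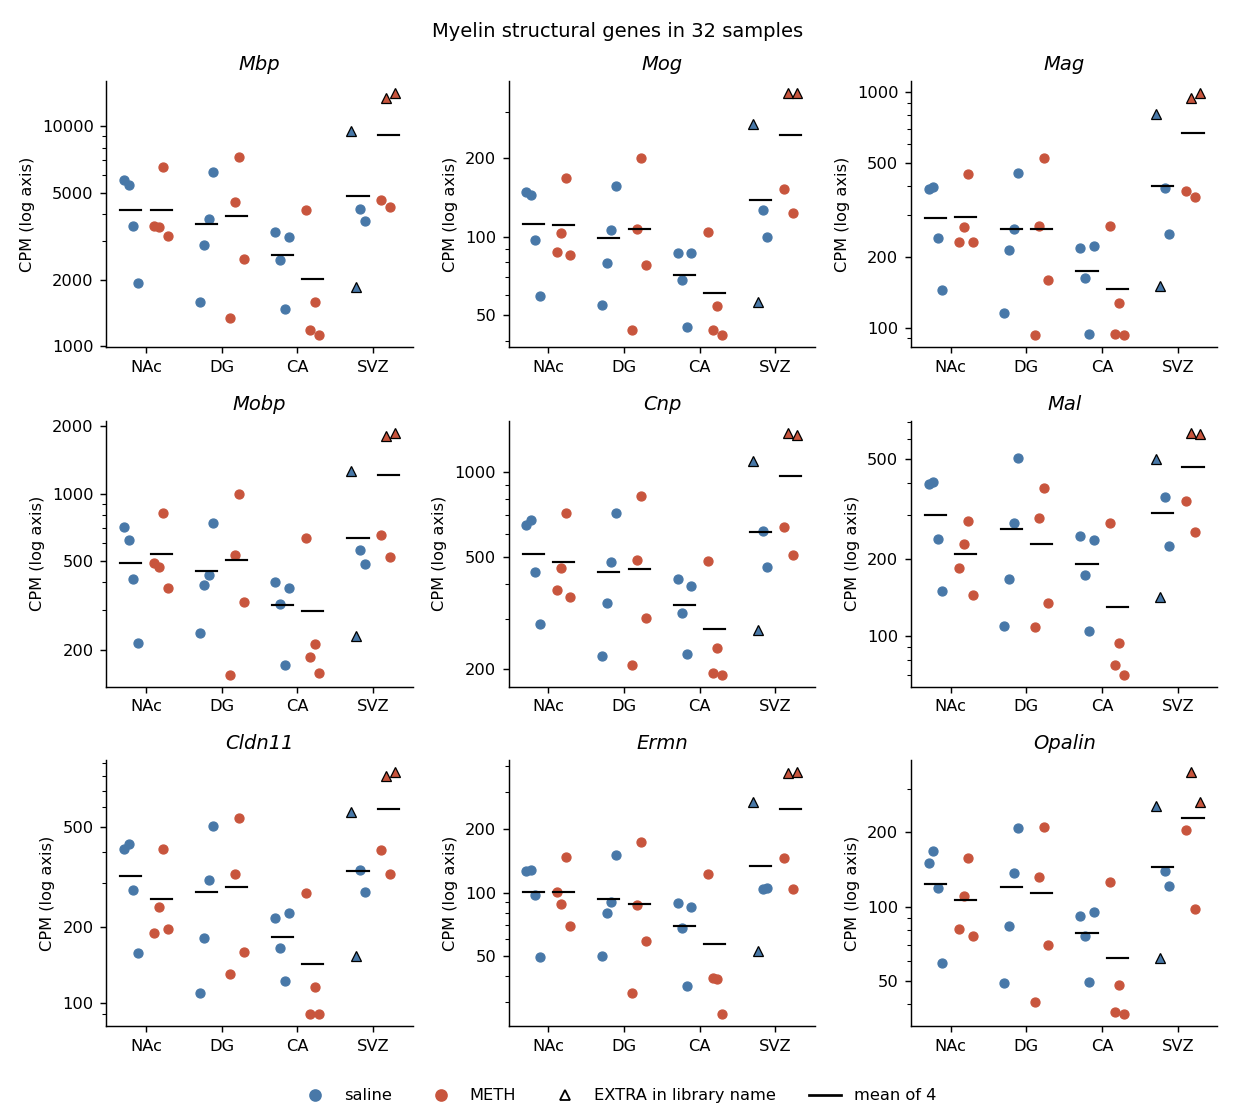
CPM of the 9 genes (log axis) in each of the 32 samples, saline in blue and METH in red, with triangles for SVZ libraries that carry EXTRA in their name and bars for the mean of 4 samples. The same samples are high or low in all 9 panels, and the spread within a group is wider than the distance between most group means.

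The headers of the count tables name a library number and, outside the SVZ, a tag (RNA2, RNA3, JJ_021819 or merged). These bear on how the groups can be read. The tag is taken here as the sequencing run, which neither the headers nor the labels say. Merged was counted as a run of its own, and whether it is one is not known. In the NAc and CA, saline libraries carry the numbers 14, 15, 22 and 23 and METH libraries 20, 21, 24 and 25. In the DG the numbers 20 and 21 stand on Sal 1 and 2, and 14 and 15 on METH 1 and 2. Samples of these regions with the same number may come from the same rat. The main fits across regions treat all samples as independent. In the SVZ, METH 1 and 2 share the number 1669, METH 3 and 4 share 1670, and the names of Sal 1, Sal 2, METH 2 and METH 4 add the word EXTRA, whose meaning is not given in the sources used here. All groups were kept as labelled. Among markers of other cells, the summed CPM of thalamic neuron genes (5 genes) was 2071 in SVZ Sal 1, 1937 in METH 2 and 1295 in METH 4, against 95.8 to 459 in the other 5 SVZ libraries, and the 6 genes of striatal neurons summed to 109 CPM in NAc METH 3, against 1137 to 6298 in the other NAc libraries. The 5 marker genes of dentate granule neurons did not set the DG apart from the CA. They summed to 111 to 339 CPM in saline DG (median 183) and to 149 to 563 CPM in saline CA (median 378). After METH they summed to 134 to 581 CPM in the DG (median 492) and to 173 to 326 CPM in the CA (median 214). The 5 marker genes of CA pyramidal neurons overlapped too, with 217 to 429 CPM in saline DG and 334 to 559 CPM in saline CA, and the part of the dissection in the DG and CA comparisons was not tested.
The markers of myelinating Schwann cells, which use some of the same genes outside the brain, included Ncmap, at most 0.237 CPM in any sample, and Pmp2, at most 0.669 CPM.

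In saline rats the myelin structural genes had their highest means in the SVZ and their lowest in the CA. Mbp was at 9548, 1865, 4215 and 3723 CPM in the 4 saline samples of the SVZ and at 5711, 5399, 3542 and 1941 CPM in the NAc. It was at 1592, 2875, 3796 and 6172 CPM in the DG and at 3326, 2478, 1470 and 3132 CPM in the CA. All 4 regions overlapped, and the SVZ held both the highest saline sample (Sal 1) and one of the lowest (Sal 2). The means were 4838 ± 3299 CPM (SVZ), 4148 ± 1755 CPM (NAc), 3609 ± 1933 CPM (DG) and 2601 ± 837 CPM (CA), each with its SD over n = 4, and no neighbours in this order differed beyond their spread.

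Mag, the adhesion protein of the inner membrane, had the largest difference between 2 regions. It was at 805, 150, 392 and 249 CPM in saline SVZ and at 218, 163, 93.9 and 222 CPM in saline CA. The log2 difference of CA against SVZ was -1.19 ± 0.51 (SE) for Mag (adjusted p = 0.127) and -0.95 ± 0.44 for Mog (adjusted p = 0.156) by edgeR's quasi-likelihood test. Mag and Mog were the only members at an unadjusted p under 0.05 in any of the 6 pairs of regions, against 19.3% of all genes that were lower in CA against SVZ by that measure, and the groups overlapped for both. At an unadjusted p under 0.05, 5.22% of all genes were higher and 6.32% lower in NAc against DG, 13.6% and 10.5% in NAc against CA, 4.16% and 8.46% in NAc against SVZ, 5.32% and 3.61% in DG against CA, and 7.93% and 9.71% in DG against SVZ, and 12.3% were higher in CA against SVZ. The median over the 9 genes was -0.89 for CA against SVZ, 0.65 for NAc against CA, 0.47 for DG against CA, -0.47 for DG against SVZ, -0.25 for NAc against SVZ and 0.17 for NAc against DG. With single libraries left out, 3 of these medians turned direction: DG against SVZ ranged from -0.81 (without DG Sal 4) to 0.09 (without SVZ Sal 1), NAc against SVZ from -0.49 (without SVZ Sal 2) to 0.21 (without SVZ Sal 1), and NAc against DG from -0.08 (without DG Sal 1) to 0.55 (without DG Sal 4). DG against CA ranged from 0.12 (without DG Sal 4) to 0.72 (without DG Sal 1) and NAc against CA from 0.48 (without CA Sal 3) to 0.86 (without NAc Sal 4).
At an adjusted p under 0.01 and a fold over 2, none of the 9 genes was called in any pair or in any region against the other 3. Over all 15515 genes tested, 0.522% were called higher and 0.29% lower in CA against SVZ, 0.00645% and 0.0129% in DG against SVZ, 0.0322% and 0.00645% in the SVZ against the other 3 regions, and 0% in the rest. The members' median for the CA against the other 3 regions was -0.70, from -0.87 (Mag) to -0.60 (Mal), with none at an unadjusted p under 0.05 (all genes: 9.42% higher and 14.2% lower), while the median of all genes was -0.08. It ranged from -0.81 (without CA Sal 1) to -0.51 (without CA Sal 3) with single libraries left out. In these fits 5 members were lower at p under 0.05 without DG Sal 1 (all genes: 16.8% lower), 4 without SVZ Sal 2 (13.2%) or without NAc Sal 4 (13.9%), and 1 without DG Sal 2, with none called. For the SVZ against the other 3 regions it was 0.50 (all genes: 12.9% higher and 8.87% lower at that p), and it was 0.003 without SVZ Sal 1, one of the libraries high in thalamic markers, and 0.75 without Sal 2, where 5 genes were at p under 0.05, against 12.9% of all genes that were higher. CA against SVZ moved in the same way, to -0.42 without SVZ Sal 1, with no member at p under 0.05, and to -1.16 without Sal 2, with 8, against 18.3% of all genes that were lower. For the NAc the median was 0.12 (all genes: 4.81% higher and 5.95% lower) and for the DG -0.09 (2.78% and 1.34%), with no member at an unadjusted p under 0.05 in either. Leaving out single libraries moved the NAc to between -0.03 (without NAc Sal 2) and 0.34 (without NAc Sal 4), and the DG to between -0.48 (without DG Sal 4) and 0.12 (without SVZ Sal 1).

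METH against saline was compared within each region, with 4 against 4 samples. None of the 9 genes was called in the NAc, DG, CA or SVZ at an adjusted p under 0.01 and a fold over 1.5, and none was at an unadjusted p under 0.05. DESeq2 called none either. Of all genes tested, 0% were called in each of the 4 regions. At an unadjusted p under 0.05, 2.42% of genes were higher and 0.968% lower in the NAc, 6.35% and 6.42% in the DG, 4.37% and 2.79% in the CA, and 1.19% and 1.39% in the SVZ.
The median log2 change of the 9 genes was 0.00 in the NAc (from -0.49 for Mal to 0.15 for Mobp) and 0.04 in the DG (from -0.21 for Mal to 0.16 for Mobp). It was -0.30 in the CA, where all 9 values were below 0, from -0.57 for Mal to -0.10 for Mobp. It was 0.82 in the SVZ, where all 9 were above 0, from 0.62 for Mal to 0.94 for Mobp. Medians of all genes tested lay between -0.01 and 0.03. Mal had the lowest and Mobp the highest value in each of the 4 regions.

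**Figure D2:**
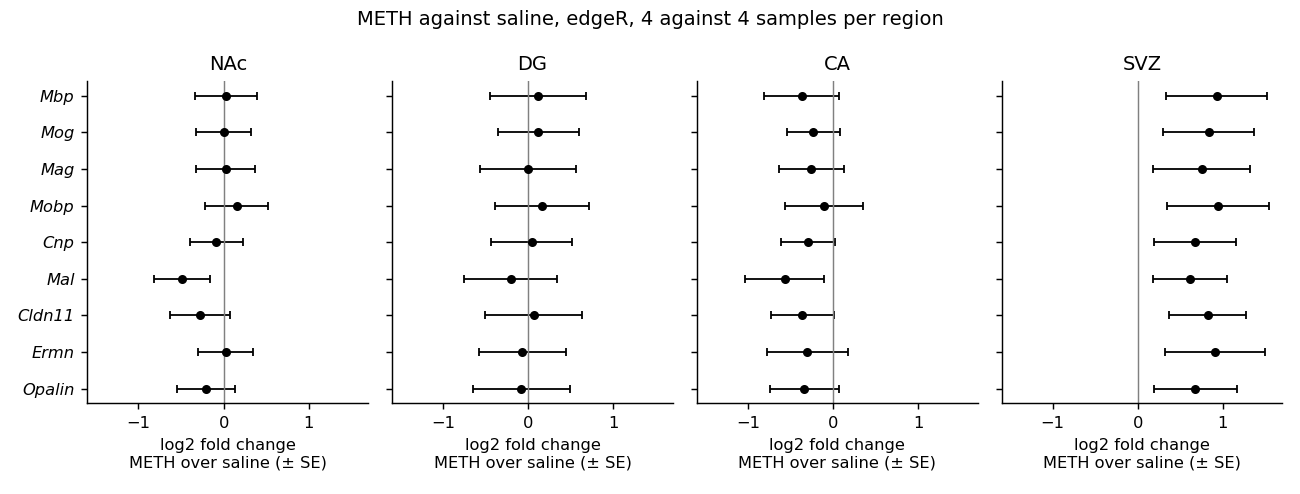
Log2 fold change of METH over saline (points, with SE as bars) for each of the 9 genes in the 4 regions, from edgeR with 4 against 4 samples. In the SVZ all 9 values lie between 0.62 and 0.94 with errors of 0.44 to 0.60, and Mal is the leftmost point in every region.

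In the SVZ the 9 genes had higher means after METH, and the 4 METH samples formed 2 levels. Mbp was at 4610, 13537, 4298 and 14172 CPM in METH 1 to 4, against 9548, 1865, 4215 and 3723 CPM in Sal 1 to 4. The means were 9155 ± 5435 and 4838 ± 3299 CPM (SD, n = 4), and edgeR gave a log2 change of 0.93 ± 0.60 (SE) with an adjusted p of 0.979. METH 2 and 4 were above every saline sample and METH 1 and 3 were below Sal 1. METH 1 and 2, with the number 1669, and METH 3 and 4, with 1670, each pair a lower with a higher library. Libraries that share a number may come from the same rat, so the 4 METH samples may not be independent.
Mobp was at 653, 1807, 521 and 1876 CPM after METH and at 1259, 230, 560 and 486 CPM after saline. Its log2 change was 0.94 ± 0.60 (adjusted p = 0.979). The same 2 METH samples stood above all saline samples. Cldn11, the tight junction protein, had the lowest p in this region, with 405, 796, 326 and 828 CPM after METH and 573, 153, 337 and 276 CPM after saline (log2 change 0.82 ± 0.45, adjusted p = 0.979). Opalin was at 204, 351, 97.3 and 265 CPM after METH, where METH 3 was below Sal 1, 3 and 4, which were at 255, 139 and 121 CPM. For Ermn, METH 3 (104.2 CPM) was also below Sal 1, 3 and 4 (272, 104.3 and 105.6 CPM), though barely below Sal 3. The values for Mog, Mag, Cnp, Mal and Ermn were 0.83, 0.75, 0.67, 0.62 and 0.91 on the log2 scale, each with an adjusted p of 0.979.

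The 3 SVZ samples highest in the 9 genes all carry the word EXTRA, as does the lowest. Of the libraries with EXTRA, METH 2 and 4 had summed CPM of the 9 genes of 20174 and 20840, and Sal 1 and 2 had 14571 and 2986. Of those without EXTRA, METH 1 and 3 had 7531 and 6589, and Sal 3 and 4 had 6843 and 5745. The 3 highest were also the 3 with high thalamic markers.
With EXTRA libraries alone (2 against 2) the median log2 change of the 9 genes was 1.12, and with the other 4 alone it was 0.21, from 0.05 (Mal) to 0.28 (Mog). It was 0.70 with EXTRA as a covariate and 0.49 (from 0.32 for Mal to 0.54 for Mog) without the 3 libraries high in thalamic markers. Summing the METH libraries of the same number gave 0.80. With the mean level of 16 other myelin and node genes as a covariate, the median was 0.04 and the range -0.03 (Cnp) to 0.17 (Cldn11). No member was called in any of these fits. Without Sal 1 the median was 1.34 and 8 of the 9 genes, all but Mal, were at p under 0.05, against 9.33% of all genes that were higher, with adjusted p of 0.270 and above. Without Sal 2 it was 0.57, and without METH 2 or METH 4 it was 0.60.

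**Figure D3:**
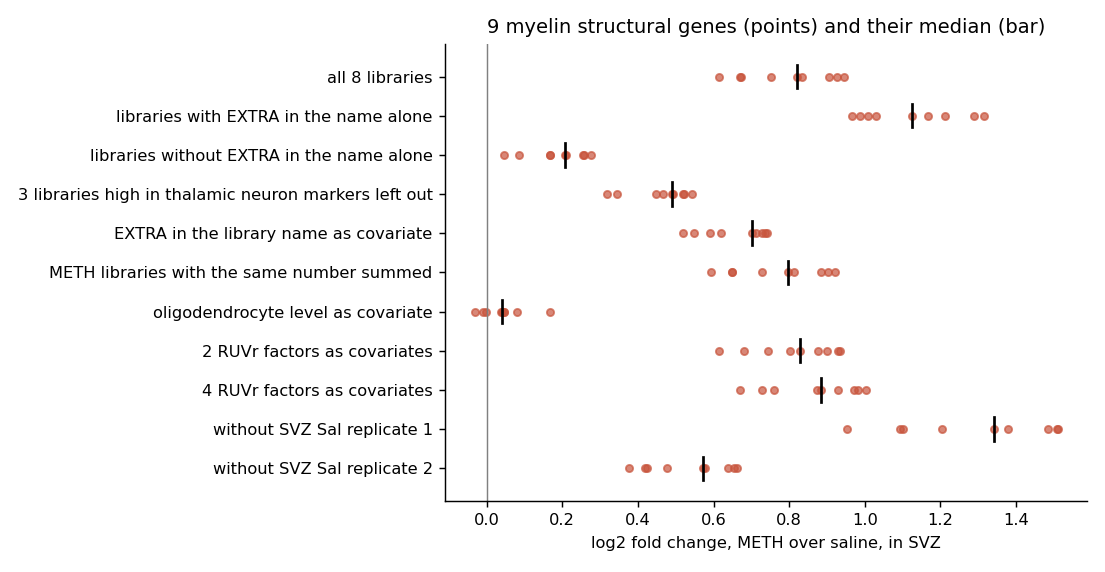
Log2 fold change of METH over saline in the SVZ for each of the 9 genes (points) and their median (bar), under different choices of libraries and covariates. The median lies at 0.82 with all 8 libraries, 1.12 with EXTRA libraries alone, 0.21 with the other 4 alone and 0.04 with the level of other myelin genes as a covariate.

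RUVr estimates unwanted factors from the residuals of the fit, here over all 32 samples, and the number of factors is not given in the sources used here. With 4 RUVr factors the SVZ changes were 0.67 (Mal) to 1.00 (Mobp), all 9 genes were at p under 0.05, and Mog alone was called (log2 change 0.93 ± 0.21, adjusted p = 0.0072 by edgeR). In that fit 11.3% of all genes were higher at p under 0.05 and 0.813% were called higher. With 2 factors no member was called and 5 were at p under 0.05 (Mbp, Mog, Mobp, Cldn11 and Ermn), against 8.88% of all genes that were higher. Mog was at 152, 355, 123 and 355 CPM in METH 1 to 4 and at 271, 56.5, 127 and 100 CPM in Sal 1 to 4, so the groups overlapped.
The SVZ effect minus the mean effect of the other 3 regions, tested in 1 fit of all 32 samples, had a median of 0.88 over the 9 genes, from 0.78 (Cnp) to 1.03 (Mal), with adjusted p = 0.974 for each and none at an unadjusted p under 0.05 (all genes: 1.12% higher and 1.87% lower). With 4 RUVr factors it was 1.02, all 9 were at p under 0.05, none was called and the lowest adjusted p was 0.022, for Mog. In that fit 8.47% of all genes were higher at p under 0.05. Without SVZ Sal 1 and without those factors it was 1.42, with all 9 genes at p under 0.05 against 8.84% of all genes, and the lowest adjusted p was 0.227. The METH effect averaged over the 4 regions had a median of 0.13, from -0.17 (Mal) to 0.28 (Mobp), with none at an unadjusted p under 0.05 (all genes: 4.29% higher and 3.54% lower). With single libraries left out that median ranged from -0.02 (without CA METH 1 or without DG METH 3) to 0.27 (without SVZ Sal 1).

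In the CA the 9 genes had lower means after METH, with 1 METH sample at the top of the region. Mbp was at 4187, 1185, 1583 and 1125 CPM in METH 1 to 4 and at 3326, 2478, 1470 and 3132 CPM in Sal 1 to 4. METH 1 was above all saline samples, METH 2 and 4 were below them and METH 3 was below 3 of them. The log2 change of Mbp was -0.37 ± 0.44 (adjusted p = 0.851).
Mal was at 278, 76.4, 93.3 and 70.2 CPM after METH and at 248, 174, 104 and 239 CPM after saline. Its log2 change of -0.57 ± 0.46 (adjusted p = 0.786) was the lowest of the 9. METH 2, 3 and 4 were below every saline sample for Mal.
Without METH 1 the median of the 9 genes was -0.89, from -0.61 (Mog) to -1.26 (Mal), and all 9 were at p under 0.05, against 4.02% of all genes that were lower, with adjusted p from 0.327 to 0.426. Leaving out any other CA library gave medians from -0.51 to -0.15 and no member at p under 0.05. The tag taken as the sequencing run differs between the groups, since the headers name Sal 1 and 2 as merged and no METH library so. With that tag as a covariate the median was -0.15. This value rests on Sal 3 against METH 3 and 4 (RNA2) and on Sal 4 against METH 1 and 2 (RNA3).

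In the NAc no common direction was seen. Mbp was at 3523, 3479, 6553 and 3181 CPM in METH 1 to 4 and at 5711, 5399, 3542 and 1941 CPM in Sal 1 to 4, with means of 4184 ± 1586 and 4148 ± 1755 CPM (SD, n = 4). METH 3, the library nearly without striatal neuron markers, was the highest NAc sample. Without it the median of the 9 genes was -0.28, and without Sal 4, the lowest sample, it was -0.22. Adding the sequencing run as a covariate moved it to 0.30.
Mal was at 186, 229, 283 and 145 CPM after METH and at 399, 406, 240 and 150 CPM after saline (log2 change -0.49 ± 0.33, adjusted p = 0.999). The groups overlapped, although the 2 highest saline samples were above every METH sample.

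In the DG the spread within both groups was wide. Mbp was at 1342, 4513, 7271 and 2500 CPM in METH 1 to 4 and at 1592, 2875, 3796 and 6172 CPM in Sal 1 to 4, and the lowest and the highest sample were both METH. Its log2 change was 0.11 ± 0.56 (adjusted p = 0.971). The medians of the 9 genes ranged from -0.43 (without METH 3) to 0.41 (without Sal 4). With replicates 3 and 4 alone, whose library numbers match the treatments of the NAc and CA, the median was -0.08, and with the run as a covariate -0.48. In the DG, run RNA3 holds only saline and run RNA2 only METH libraries. The value with the run therefore rests on Sal 3 against METH 1 and 2 in run JJ_021819. METH 3 and Sal 4, the 2 highest samples, were also highest in the summed choroid plexus markers, with 6124 and 2052 CPM against 0.392 to 179 CPM in the other DG samples, and the part of that tissue in their level was not tested.

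Since the 9 genes varied together, each was also read against the others. Over the 32 samples the 36 pairs of members had Pearson correlations of log2(CPM + 1) from 0.938 (Mobp with Mal) to 0.994 (Mog with Cnp). Mobp with Mal was also the least alike pair within the NAc (0.785), DG (0.918) and CA (0.951), over 8 samples each, and Mag with Opalin (0.928) in the SVZ. These points share libraries and dissections. The mean log2 level of the 9 genes spanned a 9.78-fold range over the samples, while each gene relative to the mean of the other 8 spanned 1.42-fold (Cnp) to 1.85-fold (Opalin), with Mal at 1.71-fold.

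Mal was lower relative to the other 8 genes in every METH sample than in every saline sample, both in NAc and in CA. In the NAc its log2 level minus their mean was -0.48, -0.33, -0.76 and -0.69 in METH 1 to 4 and -0.11, -0.09, -0.27 and -0.11 in Sal 1 to 4. In the CA it was -0.27, -0.54, -0.55 and -0.54 after METH and -0.05, -0.19, -0.24 and -0.08 after saline. The mean ratio of METH to saline was 0.747 in the NAc and 0.795 in the CA.
Read as a share of Mbp, Mal was at 4.31% to 6.60% after METH and at 6.77% to 7.75% after saline in the NAc. In the CA it was at 5.89% to 6.63% and at 7.03% to 7.64%. The ranges did not overlap in either region.
Cldn11 was also lower and Mobp higher relative to the others in every METH sample of the NAc. The mean that each gene is read against holds the others, so the separations of Mal, Cldn11 and Mobp are not independent. Cldn11 was at -0.45, -0.25, -0.15 and -0.19 after METH and between -0.07 and -0.00 after saline, and Mobp was between 0.825 and 1.09 after METH and between 0.47 and 0.820 after saline, a narrow gap. No other gene of the 9 separated in these regions, and none in the SVZ or DG. For comparison, 0.0609% of all genes tested were lower and 0.0542% higher by this measure in the NAc and 0.0205% and 0.123% in the CA. For a gene that does not vary with the 9, this measure carries the whole spread of their level. Of 26 other myelin and lipid enzyme genes, read against the 9, 1 separated as higher and 0 as lower in the NAc. In the CA 2 were higher and 1 lower, and none separated in the DG or SVZ. Those that separated included Hapln2 (higher in the NAc and CA) and Fa2h (higher in the CA). In plain CPM none of the 9 genes separated in any region, against 1.35% of all genes above and 0.914% below in the NAc, 3.91% and 3.48% in the DG, 2.57% and 1.86% in the CA, and 0.847% and 0.757% in the SVZ.

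**Figure D4:**
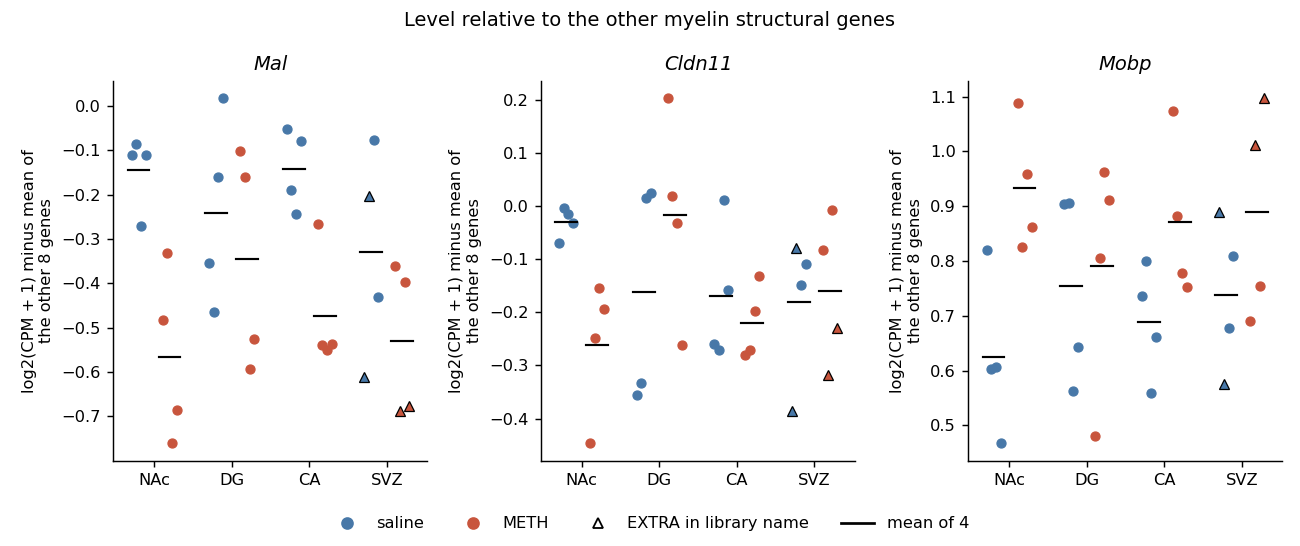
Level of Mal, Cldn11 and Mobp relative to the mean of the other 8 genes (difference of log2(CPM + 1)), by region, saline in blue and METH in red, with bars for the mean of 4 samples. Mal lies lower in all METH samples than in all saline samples of the NAc and CA, and overlaps in the DG and SVZ.

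With the level of the 16 other myelin and node genes as a covariate, edgeR gave Mal a log2 difference of -0.43 ± 0.15 in the NAc (adjusted p = 0.965) and of -0.31 ± 0.07 in the CA (adjusted p = 0.715), both at an unadjusted p under 0.05. Cldn11 was at -0.27 ± 0.10 in the NAc (adjusted p = 0.965). Neither passed the adjustment over all genes, and in the same fits 1.28% of NAc genes and 2.96% of CA genes were lower at an unadjusted p under 0.05. For DG and SVZ the values of Mal were -0.09 ± 0.18 and -0.01 ± 0.16. The difference between regions was not tested in this fit.
Within sequencing run RNA3, the relative level of Mal in the NAc was -0.48 and -0.33 after METH and -0.27 and -0.11 after saline. In the CA it was -0.54 and -0.27 against -0.08 in run RNA3, and -0.55 and -0.54 against -0.24 in run RNA2, where each run holds 1 saline library. The other NAc libraries lie in runs with samples of 1 group. The NAc and CA carry the same library numbers and may come from the same rats, so they may not be independent.
In the DG, Mal was at -0.10, -0.16, -0.59 and -0.53 in METH 1 to 4 and at -0.35, -0.47, -0.16 and 0.02 in Sal 1 to 4, and the groups overlapped. Read by library number instead, which was done after the values were seen, Mal was at -0.59 to -0.35 in the 4 libraries with the numbers 20, 21, 24 and 25 and at -0.16 to 0.02 in those with 14, 15, 22 and 23. Mobp was at 0.90 to 0.96 and 0.48 to 0.81, and Cldn11 at -0.35 to -0.03 and 0.01 to 0.20, in the same order. Ermn, which had not separated by treatment in the NAc or CA, was at -1.86 to -1.61 and -2.11 to -1.93, and the other 5 genes overlapped. The share of all genes that separate by these numbers was not computed, so whether these members stand out by them is not known. The runs differ between these sets as well, since 3 of the libraries with 14, 15, 22 and 23 come from run JJ_021819 and none of the others does. Within run RNA3, Mal was at 0.02 in Sal 4 (number 23) and at -0.35 and -0.47 in Sal 1 and 2 (numbers 20 and 21). As a share of Mbp, the sets of Mal overlapped (5.27% to 6.86% and 6.46% to 8.14%).

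Among other genes, those whose log2 level was most like the mean of the 9 over the 32 samples included Lpar1 (r = 0.992), Sept4 (0.988), Fa2h (0.987), Ugt8 (0.987), Tmem125 (0.985), Adamts4 (0.985), Tmem88b (0.983), Erbb3 (0.983) and Rffl (0.982). They were chosen out of 14448 genes with a mean of at least 1 CPM, of which 164 had r above 0.9, and the samples share regions and dissections. Ugt8 makes the galactolipids of the sheath and Fa2h their hydroxylated fatty acids. The log2 change of METH over saline for Ugt8 was 0.88 ± 0.57 in the SVZ, not at an unadjusted p under 0.05.

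The rest of the pathway was read from 4 lists, and no gene of any of them was called after METH in any region. Of 16 other myelin and node proteins, 16 had log2 changes above 0 in the SVZ (median 0.63) and 15 were below 0 in the CA (median -0.25), and none was at p under 0.05 in either. Of 10 enzymes of myelin lipids and metabolites, 10 were above 0 in the SVZ (median 0.72) and 9 were below 0 in the CA (median -0.16). Aspa, which splits N-acetylaspartate, was the only one at p under 0.05 in the SVZ, against 1.19% of all genes that were higher. Its log2 change was 0.81 ± 0.35 (adjusted p = 0.979 by edgeR). All 9 transcription factors were above 0 in the SVZ (median 0.58), among them Myrf at a log2 change of 0.78 ± 0.50, Sox10 at 0.64 ± 0.44 and Olig2 at 0.48 ± 0.37, none of them at an unadjusted p under 0.05.
Of 8 genes of precursors and of cells about to wrap, all were above 0 in the SVZ too, with a lower median of 0.36. Pdgfra, the growth factor receptor of precursors, had a log2 change of 0.16 ± 0.11 (adjusted p = 0.979), with 103 ± 8.79 CPM in saline and 114 ± 12.9 CPM in METH samples of the SVZ (SD, n = 4). Gpr17, a receptor of cells about to myelinate, had a log2 change of 0.41 ± 0.25 (adjusted p = 0.979). In the NAc and DG the medians of the 4 lists lay between -0.07 and 0.19. At an unadjusted p under 0.05, Zfp536 had a log2 change of 0.37 ± 0.15 in the NAc (adjusted p = 0.999), and in the DG it was at 0.45 ± 0.19, Tnr at 0.34 ± 0.11 and the transcription factor St18 at 1.22 ± 0.30 (adjusted p from 0.194 to 0.372). In the CA Cspg4, a proteoglycan of precursors, had a log2 change of 0.45 ± 0.12 and Sox6 one of 0.34 ± 0.10. Enpp6, a marker of newly forming oligodendrocytes, was at -0.94 ± 0.26, all with an adjusted p of 0.669 by edgeR. These were single genes picked from the 4 lists by an unadjusted p under 0.05. Of all genes, 2.42% were higher and 0.968% lower at that p in the NAc. The shares were 6.35% and 6.42% in the DG, and 4.37% and 2.79% in the CA.
Over the 32 samples Pdgfra ranged from 69.3 to 133 CPM, while the mean log2 level of the 9 structural genes spanned the 9.78-fold range given above.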

How the data were processed

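Counts of reads per gene were deposited by the authors, one table per sample, made with featureCounts 1.6.3 per the file headers (paired reads, mapping quality of at least 10, exons, no strand, Ensembl 95 on rn6); the methods name cutadapt 2.7, STAR 2.5.2b and a UCSC annotation. The rRNA-depleted libraries were grouped by the labels. CPM were computed here relative to upper-quartile library sizes. Differences were tested with edgeR 4.0.16 (R 4.3.3; quasi-likelihood, upper quartile, low-count filter) over all genes with Benjamini-Hochberg adjustment, calling an adjusted p under 0.01 with a fold over 1.5 (METH) or 2 (regions). The fitting script was tested on simulated data. Alternatives included DESeq2 1.42.0, TMM, RUVr, covariates and single libraries left out; fits by EXTRA, by thalamic markers and of DG replicates 3 and 4 were added after seeing the data. Members and lists were chosen with earlier results of these data known. The 9 genes were named by the given list, other genes by lists and by the 10 highest correlations. Some genes of these lists are not reported here. The deposited series table of counts was used only as an alternative. RNA integrity numbers served as a covariate and are not printed. Samples of the 2 treatments with the same replicate number, not library number, did not all deviate together in any region (correlations from -0.78 to 0.42). Saline samples of the NAc and CA with the same replicate number did (0.11 to 0.25). In 48 pairs of replicates none agreed within sampling noise. Promoters are from RefSeq (GRCr8); coordinates of genes are from the file headers' annotation.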

Additional observations from a re-analysis of the deposited data

Results flagged for a closer look

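In 72 groups of 4 samples (9 genes in 8 groups), 9 had 1 sample standing apart from the other 3 by Dixon's test, which flags about 1 in 20 groups by chance, and the 9 genes are not independent of each other. In CA METH 1 this held for 7 of the 9 genes, with Mbp at 4187 CPM, Mobp at 635, Cnp at 480.3, Mal at 278, Cldn11 at 275, Ermn at 123 and Opalin at 126, all above the other 3 CA METH samples. In NAc METH 3 it held for Mbp, at 6553 CPM, and for Mag, at 449 CPM, both above the other 3 NAc METH samples. That library had 109 CPM of summed striatal neuron markers, against 1137 to 6298 CPM in the other 7 NAc libraries, and the part of this in its myelin level was not tested.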

How the results depend on the processing

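The count of members called was 0 in 264 alternative fits. The exception was the SVZ with 4 RUVr factors, where 1 member was called, Mog, with a log2 change of 0.93. Of a chosen part of the values of single genes under alternatives, 540 kept their direction and side of the threshold, 1 passed it and 21 turned direction. That part does not hold every fit with a single library left out. In such fits of the NAc, Mbp, Mog, Mag, Mobp, Cnp and Ermn each turned direction more than once, and Mal, Cldn11 and Opalin never did. Mbp there was at 0.03 with all libraries and at -0.22 without NAc Sal 4. In the DG, Cldn11 was at 0.06 with all libraries and at -0.20 without DG Sal 1. In the SVZ, with the level of other myelin genes as a covariate, Mag was at -0.0020, Cnp at -0.0320, Mal at -0.0104 and Olig2 at -0.048. With the sequencing run as a covariate Mal in the NAc was at 0.0997, Mobp in the DG at -0.346 and Mobp in the CA at 0.110. These values rest on the runs that hold libraries of both groups. Mobp in the DG was also at -0.0961 with the RNA integrity number and at -0.0289 with 4 RUVr factors, and Mobp in the CA at 0.139 with the level of other myelin genes. With single libraries left out, Mobp ranged from -0.12 to 0.38 in the NAc, from -0.42 to 0.52 in the DG and from -0.79 to 0.11 in the CA, and Mal from -0.57 to 0.32 in the DG.

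With the replicate number as a block, the medians of METH against saline were 0.03 in the NAc, -0.04 in the DG, -0.47 in the CA and 0.87 in the SVZ, Mobp in the DG was at -0.0372, and no call changed. The numbers are not shown to pair the samples. Each member had at least 372 reads in every sample.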
